A study of Mus musculus with 39 samples.

Results

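Gene expression in the colon was compared with that in the ileum of the same animals in BALB/cJ, an inbred laboratory mouse strain. Total RNA from 3 parts of the gut of 13 mice had been sequenced, and the comparison uses 12 of the 39 libraries: the colon and the ileum library of each of 6 BALB/cJ mice, numbered 1 to 6. Of 34574 entries with a gene name, the 15742 with at least 1 TPM (transcripts scaled to a fixed total per library, a share of transcripts corrected for length) in at least 6 of these 12 libraries were tested. The labels give strain, tissue and mouse number and no treatment, age, sex or batch, and they do not say whether a sample was the whole wall or the mucosa. All 6 mice belong to 1 inbred strain, so the spread is that between animals of the same genotype. A further 14 libraries, colon and ileum of 7 C57BL/6J mice, served only to test whether a regional difference was the same in another strain. Unless a sentence says otherwise, levels are means of TPM ± SD over the 6 mice with the colon given before the ileum, and ranges run over the 6 libraries of a tissue.

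The ileum is the last part of the small intestine. Its villi absorb what remains of fat, sugar and protein, take up bile acids and vitamin B12, and Paneth cells at the base of its crypts secrete antimicrobial peptides. The colon has no villi and normally no Paneth cells, carries most of the gut bacteria, keeps them away from the epithelium with a mucus layer made by goblet cells, recovers salt and water, and burns the short-chain fatty acids that bacteria release.

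Of the colon markers 10 of 11 were called higher in the colon and of the ileum markers 11 of 11 were called higher in the ileum, where a gene is called at an adjusted p under 0.05 in limma. The exception was B4galnt2, a glycosyltransferase gene (281 against 322 TPM, adjusted p 0.13), which was called lower in the colon without mouse 2 (adjusted p 0.041). Each of the 6 colon libraries held more Car1 and less Fabp6 than any ileum library. Markers of the upper small intestine, also listed to check the labels, varied between the ileum libraries. They summed to 370 to 1679 TPM in the ileum and 187 to 237 TPM in the colon. The ileum sum was highest in mouse 1 and lowest in mouse 2. Whether the ileum pieces differed in position along the gut was not tested. The ileum library of mouse 2 stood apart. Its fat absorption genes summed to 7596 TPM against 19101 to 32999.7 in the other 5 ileum libraries, its B cell genes to 590.0 against 292 to 349, and its stromal and endothelial genes to 3185 against 1866 to 2078. The colon library of the same mouse was the highest colon for several ileal transcripts, for example Defa31 at 45 TPM. The list of pancreatic acinar genes summed highest in the colons of mice 3 and 5, to 3126 and 2849 TPM. The other colons held 1599 to 2058 TPM. In every colon much of this sum was Sycn, a member of the list. Where leaving out mice moved a count of list members by more than 1.5 times, both counts are given. TPM are shares of a library. The median difference of all genes was 0.12 on the log2 scale toward the colon as deposited. After rescaling by median ratios (RLE) it was -0.01.

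Of the 15742 genes, 8346 were called (53.0%), 5506 of them higher in the colon (35.0%) and 2840 lower (18.0%). Called at 2-fold, meaning also at least 1 apart on the scale of log2(TPM + 1), were 1115 genes higher in the colon (7.08%) and 933 lower (5.93%). After RLE rescaling the calls were 4005 higher and 4119 lower, and at 2-fold 910 and 1145, so the balance of directions moves with the scaling. Of the 8346 genes called as deposited 10 had the other sign after RLE rescaling, where none of the 10 was called. The shares of 35.0% and 18.0% of all genes are the background for counts of list members with all 6 mice. Counts from another fit have the calls among all 15742 genes in that fit as background. Without mice 3 and 5 these calls were 3519 higher and 2183 lower, and without mouse 2 they were 6600 and 2845. In bulk tissue, fewer cells of a type and less RNA per cell cannot be told apart.

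**Figure D1:**
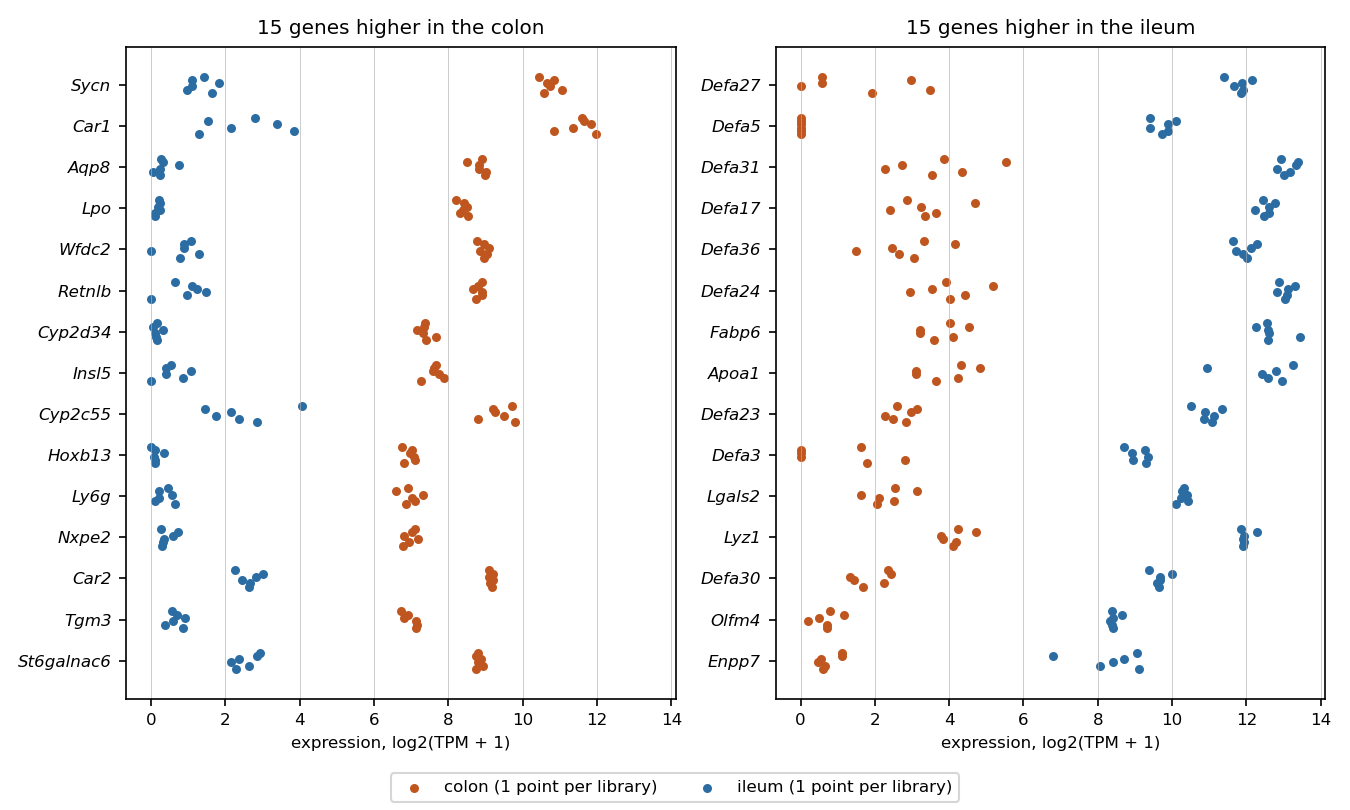
Expression in each of the 12 libraries, as log2(TPM + 1), of the 15 genes with the largest difference in each direction. In all 30 genes the 6 colon libraries (orange) and the 6 ileum libraries (blue) do not overlap. The genes were chosen by the size of the difference in these same libraries, so the separation follows largely from the choice.

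The 15 genes with the largest difference toward the colon, among called genes with a mean of at least 10 TPM in the colon, included genes of the absorptive epithelium, goblet cells and hormone cells. Car1, a carbonic anhydrase that turns carbon dioxide and water into bicarbonate and protons, ranged from 1819 to 4016 TPM (median 3162) in the colon and 1.44 to 13.5 TPM (median 4.66) in the ileum (518-fold, log2 difference 9.04 ± 0.42 SE, adjusted p 8.8e-07). Every colon library lay more than 100-fold above every ileum library. Car2, its neighbour in a cluster on chromosome 3 (14766216 to 14900770, GRCm38), was at 566 ± 19.2 against 5.32 ± 1.16 TPM (106-fold). Aqp8, a water channel, ranged from 362 to 519 TPM (median 464) in the colon and 0.0376 to 0.697 TPM (median 0.19) in the ileum. Retnlb, a bactericidal goblet cell protein, was at 405 to 481 TPM (median 462) in the colon and under 2 TPM in every ileum. Insl5, a hormone of colonic L cells, was at 152 to 237 TPM (median 199) in the colon and 0 to 1.09 TPM (median 0.388) in the ileum. Lpo, lactoperoxidase, which makes antibacterial oxidants, reached 292 to 369 TPM (median 339) in the colon, and its highest ileum value was 0.180 TPM. Wfdc2, a secreted antiprotease of mucosal surfaces, was at 493 ± 38.2 against 0.827 ± 0.478 TPM, and Tgm3, a transglutaminase that cross-links proteins, at 125 ± 16 against 0.594 ± 0.215 TPM. The enzyme genes Cyp2c55, Cyp2d34 and St6galnac6, the homeobox gene Hoxb13 and Nxpe2 completed this set apart from 2 genes better known from other cells. Sycn, named for a zymogen granule protein of the pancreas and located on chromosome 7, 28540885 to 28542209, plus strand, ranged from 1399.6 to 2126 TPM (median 1659) in the colon and 0.942 to 2.53 TPM (median 1.41) in the ileum. Ly6g, a surface marker of neutrophils on chromosome 15, 75155240 to 75159126, plus strand, ranged from 95.2 to 158 TPM (median 124) in the colon and 0.0664 to 0.571 TPM (median 0.258) in the ileum. Both were high in all 6 colons. Whether reads of overlapping or neighbouring transcripts are counted under these symbols is not known. The neutrophil genes S100a8 and S100a9 averaged 0.511 against 0.649 TPM and 0.327 against 0.55 TPM and were too low to test. The 15 log2 differences lay between 6.27 and 9.38 with adjusted p from 3.8e-10 to 8.8e-07.

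Most of the 15 genes at the other end, chosen the same way from the ileum, belonged to Paneth cells and to lipid handling. Fabp6, the ileal bile acid binding protein on chromosome 11, 43596049 to 43601540, minus strand, ranged from 8.22 to 22.4 TPM (median 13.1) in the colon and 4884 to 11144 TPM (median 6159) in the ileum (499-fold higher in the ileum, log2 difference -8.89 ± 0.22 SE, adjusted p 2.7e-08). Apoa1, the main protein of high-density lipoprotein, was at 15.2 ± 7.78 against 6396 ± 2663 TPM, and its lowest ileum value, 1945 TPM, was that of mouse 2. Lyz1, the lysozyme of Paneth cells, ranged from 12.8 to 25.5 TPM (median 16.7) in the colon and 3722 to 5005 TPM (median 3863) in the ileum (236-fold). Olfm4, a glycoprotein of small intestinal crypt base cells, reached 318 to 399.9 TPM (median 335) in the ileum and at most 1.25 TPM in any colon. Lgals2, a galectin, and Enpp7, the alkaline sphingomyelinase of the brush border, were at 4.31 ± 1.98 against 1261 ± 102 TPM and 0.713 ± 0.353 against 370.2 ± 169 TPM. The other 9 were alpha-defensin genes. All 15 were separated without overlap, at log2 differences from -10.22 to -7.61 and adjusted p from 8.7e-10 to 1.8e-06. They were chosen by the size of the difference in these same libraries, so the separation follows largely from the choice.

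The Hox genes, transcription factors that give cells a position along the body axis, differed by cluster and by number. Of 39 Hox genes 28 were tested, and 18 were called higher and 4 lower in the colon (all genes 35.0% and 18.0%). In the Hoxa cluster all 10 tested genes were higher in the colon. Those from Hoxa9 onward were nearly absent from the ileum: Hoxa9 was at 37 ± 4.11 against 0.185 ± 0.106 TPM, Hoxa10 at 34.5 ± 2.51 against 0.0872 ± 0.0702 TPM and Hoxa13 at 32.5 ± 6.99 against 0.0184 ± 0.0452 TPM. The last genes of 2 other clusters did the same, with Hoxb13 at 123 ± 12.4 against 0.0944 ± 0.0944 TPM and Hoxd13 at 21 ± 2.83 against 0.0101 ± 0.0247 TPM. The middle of the Hoxb cluster showed no call with all 6 mice. Hoxb2, Hoxb3, Hoxb4, Hoxb5, Hoxb6 and Hoxb7 had log2 differences between -0.08 and 0.58, with mice on both sides of 0. Leaving out mouse 5 gave calls for Hoxb5 (0.58, adjusted p 0.018) and Hoxb6 (0.84, adjusted p 0.017), and leaving out mouse 2 for Hoxb3 (0.40, adjusted p 0.043). Hoxb9 was 4.29-fold higher (adjusted p 1.9e-05). The Hoxc cluster ran the other way. Hoxc4, Hoxc5, Hoxc6 and Hoxc8 were the 4 called lower, Hoxc6 at 0.431 ± 0.319 against 6.45 ± 2.69 TPM (log2 difference -2.34 ± 0.23 SE, adjusted p 7.2e-05) and Hoxc8 at 0.512 ± 0.157 against 5.81 ± 1.33 TPM. Hoxc10 to Hoxc13 were under 0.1 TPM on average in both tissues and were not tested.

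**Figure D2:**
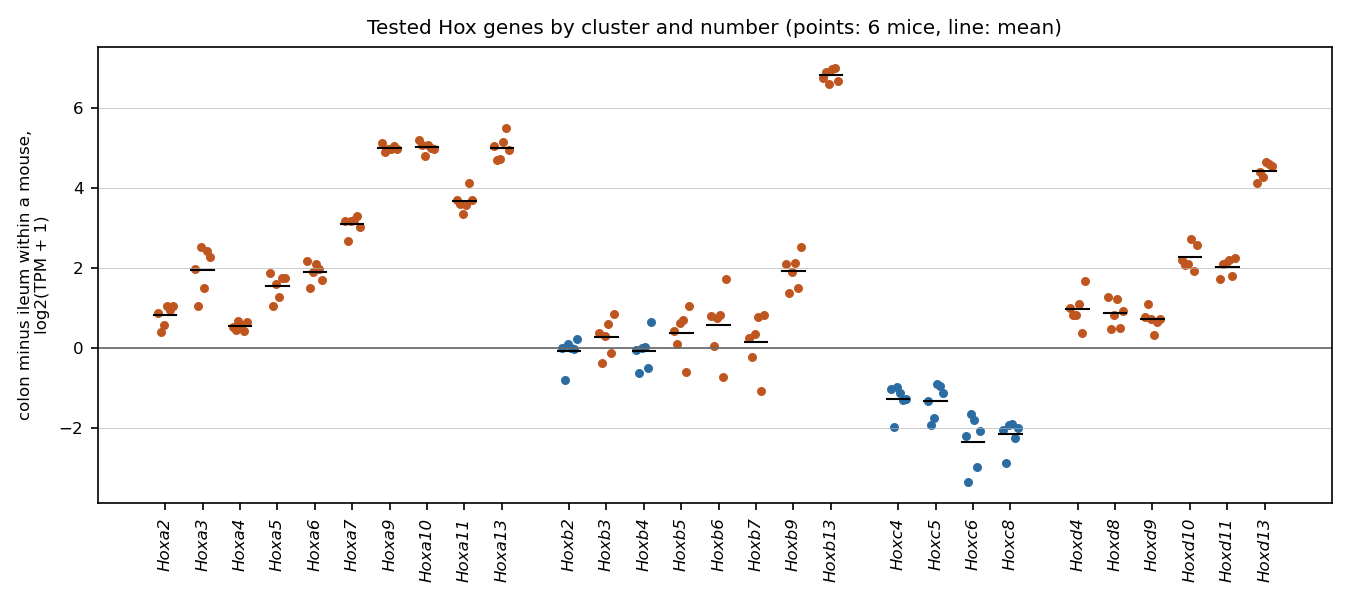
Difference between colon and ileum in each of 6 mice, on the log2(TPM + 1) scale, for the 28 tested Hox genes ordered by cluster and number, with the mean as a line, in orange where the mean is above 0 and in blue where it is below. Genes 9 to 13 of clusters a, b and d lie above 0 in all mice, the middle Hoxb genes scatter around 0, and the 4 Hoxc genes lie below 0 in all mice.

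Among 38 other transcription factors of the gut epithelium, 16 were called higher and 16 lower in the colon. The nuclear receptor gene Pparg, which senses fatty acids, was 11.5-fold higher, and Foxa2, a pioneer factor, 8.81-fold higher. Atoh1, which commits progenitors to the secretory lineage, was 2.99-fold higher and Cdx1 1.9-fold higher. The GATA factors of the small intestine were at the other extreme. Gata4 ranged from 0.223 to 0.486 TPM (median 0.361) in the colon and 19 to 50.7 TPM (median 38.4) in the ileum, and Gata5 from 0.236 to 0.389 TPM (median 0.296) in the colon and 26.6 to 44.3 TPM (median 35.9) in the ileum. Hnf4g and Hnf4a encode related nuclear receptors of enterocytes, and they differed in size of change: Hnf4g was 8.81-fold lower in the colon (18.2 ± 2.25 against 160.0 ± 33.5 TPM, adjusted p 1.1e-06) and Hnf4a 1.32-fold lower (249.8 ± 17.6 against 329 ± 43.5 TPM, adjusted p 4.3e-04). Maf was 9.46-fold lower and Creb3l3, a regulator of lipid genes, 30.7-fold lower. Gata6 (19.1 against 20.6 TPM, adjusted p 0.3) and Klf5 (91.9 against 83.3 TPM, adjusted p 0.24) were not called.

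Bile acids are made in the liver, recovered by ileal enterocytes and returned in portal blood, and the receptor FXR, encoded by Nr1h4, senses them on the way. Of 16 tested genes of this circuit 13 were called lower and 2 higher in the colon. The uptake carrier Slc10a2 was at 40.4 ± 10.4 against 153 ± 47.9 TPM (3.79-fold lower). Both subunits of the export carrier were lower, Slc51a by 11.9-fold (35.3 ± 11.8 against 421 ± 78.9 TPM) and Slc51b by 8.17-fold (42.9 ± 7.83 against 350.4 ± 75.3 TPM). Fgf15, the hormone by which the ileum tells the liver to slow bile acid synthesis, ranged from 0.133 to 0.271 TPM (median 0.212) in the colon and 7.05 to 109 TPM (median 51.8) in the ileum. Its lowest ileum value was that of mouse 1. Nr0b2, another FXR target, was at 0.231 ± 0.204 against 6.2 ± 2.07 TPM, and Nr1h4 itself was 1.85-fold lower (38.7 ± 5.44 against 71.8 ± 5.4 TPM). Abcc3, an exporter of conjugates, was 2.85-fold higher in the colon.

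The sequences before the start of these genes were read because these members moved together. RefSeq promoters on GRCm38.p6 were found for 10923 of the tested genes, and the 250 bases before the start were searched on both strands. The inverted repeat GGTNANTNACC, a form of the FXR element, was present in 72 of 32851 promoters (0.219%), in 28 of the 10923 tested (0.256%), in 6 of the 564 called lower at 2-fold that had a promoter (1.06%) and in 1 of the 785 called higher at 2-fold (0.127%). The 6 lower genes were Fabp6 with 2 matches, Slc51b with 1, and Mme, Rdh9, 1700016C15Rik and AA986860. Slc10a2, Slc51a, Fgf15 and Nr0b2 of the bile acid list were not among them. Capitals mark the matches, and sequences run 5′ to 3′ on the strand of the gene.
Fabp6, chr11:43601663-43601812, minus strand: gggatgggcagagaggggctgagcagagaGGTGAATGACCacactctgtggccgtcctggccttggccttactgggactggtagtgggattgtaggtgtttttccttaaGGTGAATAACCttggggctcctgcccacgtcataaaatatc
Slc51b, chr9:65422919-65422989, minus strand: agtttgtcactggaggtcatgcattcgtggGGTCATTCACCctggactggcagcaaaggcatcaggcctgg
An HNF4-type motif, CAAAGTCCA, was found in 126 promoters (0.384%), in 14 of the 564 lower (2.48%) and 7 of the 785 higher (0.892%), against 58 of those tested (0.531%). It occurred in genes that went opposite ways: the alkaline phosphatase gene Alpi and the trehalase gene Treh were lower in the colon, and the calcium channel gene Trpv6 higher.
Alpi, chr1:87101607-87101655, minus strand: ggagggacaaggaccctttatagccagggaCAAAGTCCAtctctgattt
Treh, chr9:44673132-44673200, plus strand: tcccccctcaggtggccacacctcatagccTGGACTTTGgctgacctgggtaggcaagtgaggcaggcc
Trpv6, chr6:41636516-41636584, minus strand: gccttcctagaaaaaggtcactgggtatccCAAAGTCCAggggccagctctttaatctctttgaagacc
An HNF1-type motif, GTTAATNATT, was found in 122 promoters (0.371%), in 11 of the 564 lower (1.95%) and 7 of the 785 higher (0.892%), against 39 of those tested (0.357%). Its matches included the bile acid carrier Slc10a2, the cholesterol carrier Npc1l1 and, higher in the colon, the chloride exchanger Slc26a3.
Slc10a2, chr8:5105469-5105537, minus strand: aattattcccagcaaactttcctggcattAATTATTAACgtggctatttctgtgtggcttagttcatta
Npc1l1, chr11:6230250-6230319, minus strand: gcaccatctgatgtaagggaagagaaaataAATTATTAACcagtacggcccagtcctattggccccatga
Slc26a3, chr12:31438105-31438174, plus strand: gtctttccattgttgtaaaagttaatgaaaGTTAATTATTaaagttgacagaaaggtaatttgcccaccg
These shares describe letters in a window and were not tested.

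Genes of fat absorption were lower in the colon. Dietary fat enters enterocytes as fatty acids and monoglycerides, is rebuilt into triglyceride, and leaves on apolipoprotein B as chylomicrons. Of 31 tested genes 26 were called lower in the colon and 3 higher, with a median log2 difference -3.82 from the median of all genes, and their summed level was 1195 ± 83.7 against 21722 ± 8512 TPM (exact sign-change test over 64 patterns, p 0.031, the smallest that 6 pairs allow, adjusted p 0.042). Apob, the scaffold of the chylomicron, was at 3.72 ± 1.06 against 780.3 ± 256 TPM, and Mttp, the transfer protein that loads it, at 3.61 ± 0.923 against 469.6 ± 133 TPM. Both were lower in every colon than in the ileum of mouse 2. Mogat2, which rebuilds triglyceride from monoglyceride, was at 1.47 ± 0.245 against 189.9 ± 42.9 TPM (129-fold). The fatty acid binding protein Fabp2 was 20.2-fold lower and Fabp1 89.6-fold lower. The 3 genes called higher in the colon were Plin2, a lipid droplet coat gene (1.84-fold), Scarb1 (1.71-fold) and Fitm2 (1.37-fold, not called without mice 3 and 5). Cd36 was not called (36.2 against 45.7 TPM, adjusted p 0.21).

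Sugar handling and brush border digestion followed the same direction. All but 1 of 19 sugar genes were called lower in the colon, the exception being the gluconeogenic gene Pck1 (159.8 against 134 TPM, adjusted p 0.22), called higher without mouse 1 (0.80, adjusted p 0.038). The disaccharidase gene Sis (sucrase-isomaltase) ranged from 4.4 to 12.3 TPM (median 6.59) in the colon and 607 to 1641 TPM (median 1231) in the ileum. Lct (lactase) ranged from 0.357 to 1.68 TPM (median 0.677) in the colon and 71 to 405 TPM (median 243) in the ileum. The lowest ileum library for each was that of mouse 2, and it still lay above every colon. The glucose carrier Slc5a1 was 7.79-fold lower (75.3 ± 2.02 against 586 ± 193 TPM) and the fructose carrier Slc2a5 22.8-fold lower. Of 18 genes of the brush border and its peptidases 17 were called lower and none higher. Anpep, aminopeptidase N, was 175-fold lower (14.5 ± 2.27 against 2548 ± 617 TPM) and Naaladl1 134-fold lower. Structural genes of the microvillus differed less, with Vil1 3.7-fold lower and Ush1c 1.35-fold lower (not called without mice 3 and 5).

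Amino acid carriers split. Of 20 genes 14 were called lower and 5 higher in the colon. Slc6a19, the main carrier of neutral amino acids in the small intestine, was 108-fold lower (3.7 ± 1.62 against 400.2 ± 125 TPM), and the cystine carrier Slc7a9 42-fold lower. The peptide carrier Slc15a1 kept more of its level (106 ± 10.8 against 455 ± 167 TPM, 4.27-fold lower). Slc6a14, a carrier with a broad range, was the large exception at 447 ± 30.2 against 24.5 ± 9.0 TPM (18.2-fold higher, log2 difference 4.22 ± 0.20 SE, adjusted p 8.3e-07). Among 27 vitamin and mineral genes 16 were called lower and 5 higher. Cubn and Amn, the receptor pair for vitamin B12 bound to intrinsic factor, were at 1.9 ± 0.784 against 221 ± 54.2 TPM and 2.18 ± 0.81 against 57.1 ± 17.5 TPM, and Rbp2, a retinol binding protein, was 24.1-fold lower. Genes for minerals went both ways. Of the phosphate carriers Slc20a1 was 12.1-fold higher in the colon and Slc34a2 12.1-fold lower. Of 4 alkaline phosphatase genes, the brush border form Alpi was 21.4-fold lower (12.3 ± 3.33 against 263 ± 83.8 TPM), as were Akp3 (0.989 against 6.07 TPM) and Alppl2 (0.121 against 2.49 TPM), and Alpl was 1.55-fold higher (adjusted p 0.042). That last call was lost when mouse 1, 3, 4, 5 or 6 was left out (adjusted p 0.059 to 0.12), after RLE rescaling and without the mouse term. The iron exporter Slc40a1 was 5.27-fold higher (164 ± 20.3 against 31 ± 7.19 TPM), while the importer Slc11a2 was not called (43.8 against 44 TPM).

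Genes of sodium recovery were higher in the colon. Of 39 tested ion and water transport genes 22 were called higher and 12 lower. All 3 subunits of the epithelial sodium channel were higher: Scnn1a was at 32.4 ± 5.48 against 2.36 ± 0.618 TPM, Scnn1b at 9.3 ± 1.11 against 0.145 ± 0.0962 TPM and Scnn1g at 3.08 ± 0.773 against 0.00544 ± 0.00844 TPM. Nr3c2, the receptor for aldosterone that drives this channel, was 2.58-fold higher, and Hsd11b2, which keeps glucocorticoids away from that receptor, 14.9-fold higher. The chloride exchanger Slc26a3 was 6.76-fold higher (638 ± 66.2 against 94.3 ± 13.1 TPM). Its relative Slc26a6 went the other way (3.72 ± 0.881 against 196 ± 44.3 TPM, 52.8-fold lower). Other families also divided between the regions. Of the water channels Aqp8 and Aqp4 (22.5-fold) were higher and Aqp7 (10.3-fold) and Aqp3 (6.8-fold) lower. Of the guanylin hormones Guca2a was 2.03-fold higher and Guca2b 14.3-fold lower, and of the Clca genes Clca1 3.87-fold higher and Clca4b 225-fold lower. Gucy2c, the receptor of the guanylins, was not called (143 against 129 TPM, adjusted p 0.2). Atp1b1, a subunit of the sodium pump, was not called (954 against 902 TPM). Among 12 carbonic anhydrases 6 were higher, with Car4 6.79-fold higher, and Car13 was the 1 called lower (2.85-fold, 2 lower after RLE rescaling). Of 10 claudins, which seal the tight junction, 6 were higher, led by Cldn8 (11-fold), and 4 lower, led by Cldn15 (2.4-fold).

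Genes of the short-chain fatty acid and ketone list were higher in the colon, 13 of 17 against 1 lower (10 and 1 after RLE rescaling). Slc16a1, a carrier of butyrate and lactate, was 3.04-fold higher, Acsm3, which activates medium-chain acids, 10.1-fold higher, and Ffar2, a receptor for acetate and propionate, 4.96-fold higher. Beta-oxidation enzymes were closer: Acadm was not called (243 against 224 TPM) and Hadh was 1.59-fold lower (adjusted p 0.0043). In cholesterol synthesis 19 of 24 genes were higher and 2 lower, by small amounts: only Insig1 (2.24-fold) passed the 2-fold call.

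Goblet cell genes were higher in the colon, with 21 of 26 called higher, 20 of them at 2-fold, and 2 lower (1 lower without mice 3 and 5). Muc2, the gel-forming mucin of the mucus layer, ranged from 4684 to 11816 TPM (median 8462) in the colon and 1064 to 2288 TPM (median 1365) in the ileum (5.35-fold, log2 difference 2.38 ± 0.12 SE, adjusted p 1.2e-06). Agr2, which folds that mucin, was 2.95-fold higher, and Spdef, a factor for goblet cell maturation, 4.3-fold higher. Klk1, a tissue kallikrein, was 13.8-fold higher. The products of goblet cells did not all follow. Fcgbp, which binds Muc2 in mucus, was not called (2112 against 1834 TPM, adjusted p 0.16). Nor was the trefoil peptide gene Tff3 (2892 against 3192 TPM, adjusted p 0.25), although it was lower without mouse 2 (adjusted p 0.019), and Ang4, an angiogenin also found in Paneth cells, was 3.02-fold lower (adjusted p 3.6e-05). Membrane-bound mucins and Ceacams were called higher in 8 of 11, Muc4 at 113 ± 21.3 against 8.74 ± 3.52 TPM (12.9-fold), while Muc13 was 1.39-fold lower.

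Enzymes of the mucin glycosylation list were called higher in 27 of 35 and lower in 3. Their median log2 difference lay 1.27 above that of all genes. Not all of them act on mucins. St6galnac6, a sialyltransferase, ranged from 424 to 486 TPM (median 447) in the colon and 3.46 to 6.68 TPM (median 4.68) in the ileum (91.1-fold). B3galt5, a galactosyltransferase, was at 226 ± 11 against 3.1 ± 1.08 TPM (72.9-fold), B3gnt7 28.1-fold higher, and Fut2, the fucosyltransferase of secretor status, 9.95-fold higher. Core enzymes differed less, C1galt1 by 3.09-fold and its chaperone C1galt1c1 by 1.7-fold. Gcnt4 (11.8-fold) and B4galnt1 (2.61-fold) were the large exceptions of this list that were lower in the colon. In the Nxpe family 4 of 5 were higher, Nxpe2 and Nxpe5 at 125 ± 14.4 against 0.351 ± 0.186 TPM and 136 ± 12.1 against 1.83 ± 0.665 TPM.

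Alpha-defensins, the peptides that Paneth cells release into the crypt, had the largest mean sum of the lists in the ileum, although in mouse 1 the fat absorption genes summed higher (32999.7 against 30316 TPM). The 22 genes in the table lie on chromosome 8 from 21025545 to 21735471 (GRCm38, GENCODE M21) and summed to 30316 to 43299 TPM in the ileum and 31.1 to 164 TPM in the colon (439.8-fold, exact p 0.031, adjusted p 0.042). The highest colon sum was that of mouse 2. Of 16 tested members 14 were called lower in the colon and none higher (1 higher without mouse 3, Defa21 at an adjusted p of 0.019). Reads of near-identical members can be assigned to one copy or another, so single values such as Defa24 (8493 ± 1028 TPM in the ileum) or Defa27 (3635 ± 618) are less certain than the sum. Other Paneth products were also lower: Pla2g2a, a bactericidal phospholipase, was 20.2-fold lower (106 ± 16.4 against 2142 ± 367 TPM), Mmp7, the protease that activates mouse defensins, 23.6-fold lower, and Itln1, a lectin, 42.5-fold lower. Mptx1, a mucosal pentraxin of the same list, was 2.65-fold higher in the colon (548 ± 142 against 207 ± 31.2 TPM), and Nod2 was not called (2.3 against 2.35 TPM). In all 8 of 14 such genes were lower and 3 higher.

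Other antimicrobial genes went both ways. The C-type lectins Reg3b and Reg3g, which bind bacterial peptidoglycan, were 26.6-fold and 42.7-fold lower in the colon (395 ± 195 against 10487 ± 5226 TPM and 119.7 ± 38.3 against 5108 ± 2470.3 TPM). Both varied between mice, with the ileum of mice 3 and 4 highest (17169 and 16178 TPM of Reg3b) and that of mouse 1 lowest (4351 TPM), and no colon reached any ileum. Saa1, a serum amyloid, was 10.5-fold higher (1203 ± 166 against 114 ± 88.7 TPM), Reg4 4.17-fold higher and Lypd8, which binds flagella, 3.76-fold higher (6531 ± 543 against 1737 ± 331 TPM). The small proline-rich genes Sprr2a2 and Sprr2a3, close copies that can share reads, were 12.9-fold and 12.6-fold higher. Of the whole list 14 of 25 were higher and 6 lower. Pigr, which carries immunoglobulin A across the epithelium, was not called at 1641 ± 130.1 against 1615 ± 189.9 TPM (log2 difference 0.03 ± 0.06 SE, adjusted p 0.73). Oxidant enzymes divided as well, 5 of 20 higher and 11 lower. Nox1 was 4.51-fold higher in the colon. Nos2, the inducible nitric oxide synthase, ranged from 0.64 to 1.41 TPM (median 1.09) in the colon and 68.4 to 99.9 TPM (median 88.4) in the ileum, and Duoxa2, the partner of the oxidase Duox2, was 3.01-fold lower.

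Hormone genes differed by hormone. Of 29 enteroendocrine genes 13 were called higher and 7 lower in the colon (all genes 35.0% and 18.0%). Their median log2 difference lay -0.007 from that of all genes, so the list did not move as a group. Pyy, the ileal brake hormone of L cells, was 4.87-fold higher (251 ± 25.2 against 51.6 ± 12.6 TPM), Gcg, which encodes GLP-1, 1.62-fold higher, and Tph1, the enzyme of serotonin synthesis, 4.89-fold higher. Ppy, pancreatic polypeptide, was at 47.5 ± 3.6 against 0.584 ± 0.206 TPM. Other hormone genes were lower: Gip was at 0.416 ± 0.676 against 84.4 ± 34.6 TPM, Nts, neurotensin, was 4.97-fold lower, Cck 4.59-fold lower and Sct, secretin, 3.35-fold lower. The endocrine factors Neurog3 (1.02 against 1.01 TPM) and Neurod1 (1.73 against 1.53 TPM) were not called. Of 15 tuft cell genes 10 were higher and none lower, with Dclk1 2.89-fold higher and Trpm5, their taste channel, 1.95-fold higher.

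Stem cell genes did not move as a group. Of 22 stem cell and Wnt target genes 11 were higher and 7 lower, and 7 and 6 without mice 3 and 5. Lgr5, the marker of crypt base stem cells, was 1.62-fold lower with overlapping ranges (3.42 to 8.27 TPM (median 5.18) in the colon and 6.25 to 11.9 TPM (median 7.77) in the ileum, adjusted p 0.0018). Axin2, a Wnt target, was 2.39-fold lower and Smoc2 1.96-fold lower, while Sox9 was 2.82-fold higher and Ephb3 2.2-fold higher. Ascl2 was not called (3.69 against 4.18 TPM, adjusted p 0.27). Cell cycle genes were called lower in 15 of 32 and higher in 1, none at 2-fold, in 28 and 1 after RLE rescaling, and in 4 and 1 without mice 3 and 5 (9 lower without mouse 5). Top2a was 1.74-fold lower (adjusted p 0.0021) and Mki67 at 50.3 against 66.6 TPM was not called (adjusted p 0.069), but was called lower after RLE rescaling (adjusted p 0.0093) and without mouse 6 (adjusted p 0.049). Their sum was 876 ± 105 against 1151 ± 206 TPM, with 5 of 6 mice lower in the colon (adjusted p 0.074, exact sign-change test).

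**Figure D3:**
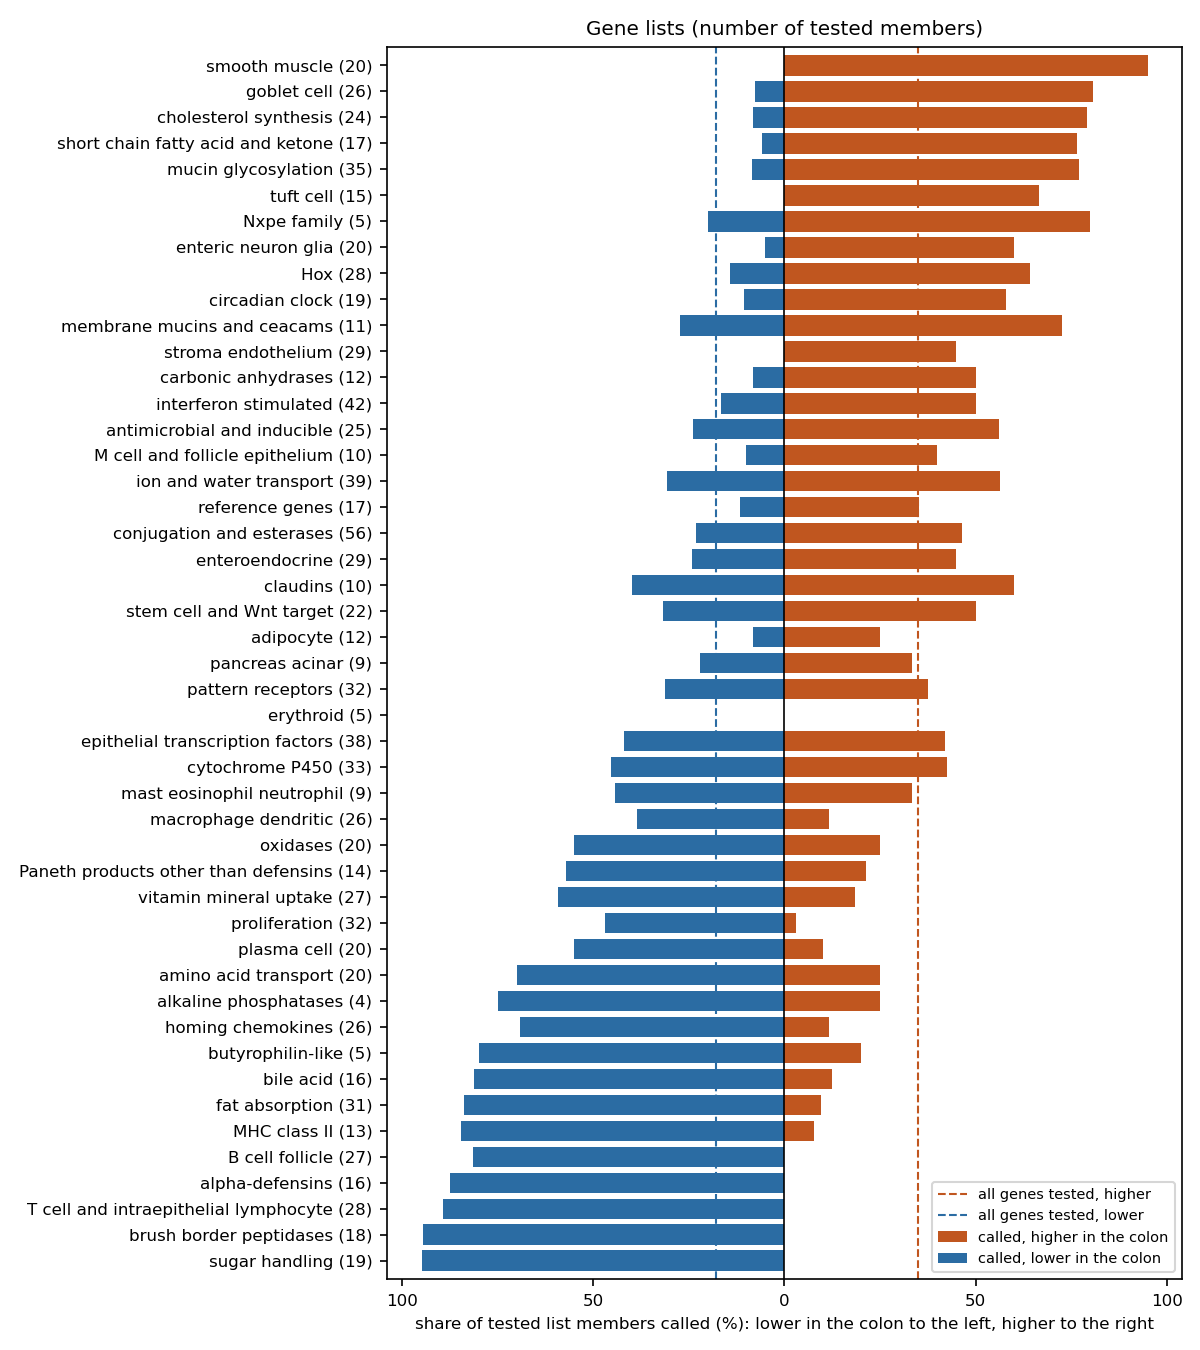
Share of the tested members of 47 gene lists called higher (orange, to the right) or lower (blue, to the left) in the colon, in percent, with the number of tested members in brackets and the shares of all genes tested, 35.0% and 18.0%, as dashed lines. Sugar, peptidase and lymphocyte lists lie at the ileal end and smooth muscle, goblet cell and glycosylation lists at the colonic end.

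Lymphocyte genes were lower in the colon. Intraepithelial lymphocytes are T cells lodged between enterocytes, most of them with the CD8 coreceptor in the small intestine. Of 28 tested T cell genes 25 were called lower and none higher (25 and 1 without mouse 2), and their sum was 137 to 163 TPM in the colon and 288 to 425 in the ileum (exact p 0.031, adjusted p 0.042). Cd8a was 7.19-fold lower (1.46 ± 0.268 against 10.5 ± 1.02 TPM, log2 difference -2.23 ± 0.10 SE, adjusted p 5.8e-07) and Cd4 2.02-fold lower (5.29 ± 1.39 against 10.7 ± 2.37 TPM). Cd3g of the receptor complex was 4.63-fold lower, Ccl5, a chemokine of effector cells, 9.88-fold lower, and Ccr9, the receptor that brings lymphocytes to the small intestine, 4.94-fold lower. Thy1 (39.6 against 33.1 TPM, adjusted p 0.14) was called higher without mouse 2 (adjusted p 8.2e-04), and Foxp3 was too low to test (0.592 against 0.598 TPM). The epithelial partner of that homing receptor showed the largest change of its list: Ccl25 ranged from 12 to 16.8 TPM (median 15.2) in the colon and 565 to 848 TPM (median 760.3) in the ileum (51.5-fold lower in the colon, log2 difference -5.59 ± 0.13 SE, adjusted p 2.1e-08). Of 26 chemokine and homing genes 18 were lower and 3 higher, among the latter Ccl20 (2.64-fold) and Ccl6 (2.26-fold). The butyrophilin-like genes that shape these lymphocytes were lower in 4 of 5, Btnl1 by 4.56-fold and Btnl2 by 29.1-fold. Btnl9 was higher (1.57 against 0.672 TPM).

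B cell genes were called lower in 22 of 27, with none higher, at smaller folds. Cd79a, part of the B cell receptor, was 2.41-fold lower (8.51 ± 1.26 against 20.5 ± 6.49 TPM), Ms4a1 2.48-fold lower and Pax5 3.1-fold lower. The ileum of mouse 2 held the most B cell RNA, and without that mouse 22 genes were called and the difference of the sums was -0.80 in place of -0.93 on the log2 scale. Plasma cell genes were lower in 11 of 20 and higher in 2. Igha, the constant gene of immunoglobulin A, was 2.41-fold lower (1364 ± 565 against 3293 ± 918 TPM, adjusted p 0.0048) and Jchain 2.09-fold lower. The sums ranged from 2456 to 8597 TPM in the colon and from 8245 to 15879 in the ileum. In mouse 1 they were nearly equal (8597 and 8833), and in mouse 2 they were furthest apart (2456 and 15879). The lambda chain gene Iglc1 was not called at 207 ± 168 against 192 ± 138 TPM (adjusted p 0.98).

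The class II antigen presentation genes summed lower in the colon in every mouse. Of 13 genes 11 were called lower, 9 of them at 2-fold, and 1 higher, the protease gene Ctss (1.34-fold). Cd74, the invariant chain, ranged from 309 to 498 TPM (median 359) in the colon and 1808 to 2105 TPM (median 1925) in the ileum (5.03-fold, log2 difference -2.34 ± 0.10 SE, adjusted p 6.6e-07). H2-Ab1 was 4.79-fold lower, H2-DMb1 6.02-fold lower, and Ciita, the master regulator of the class, 3.89-fold lower. The sums were 949.7 to 1436 TPM in the colon and 3956 to 4632 in the ileum (3.59-fold). General markers of macrophages did not differ in the same way: Adgre1 (10.2 against 9.18 TPM), Cd68 (11.2 against 10.4 TPM) and Lyz2 (308 against 285 TPM) were not called, and of the macrophage and dendritic cell list 10 of 26 were lower and 3 higher (1 higher without mice 3 and 5). Itgax, the dendritic cell integrin, was 2.24-fold lower and Cd14, the endotoxin coreceptor, 3.46-fold higher. Of the mast cell proteases Mcpt1 and Mcpt2, products of mucosal mast cells, were at 1.3 ± 0.853 against 13.7 ± 6.12 TPM and 0.567 ± 0.355 against 6.21 ± 2.73 TPM, and Cma1 was at 4.05 ± 1.0 against 0.183 ± 0.134 TPM.

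**Figure D4:**
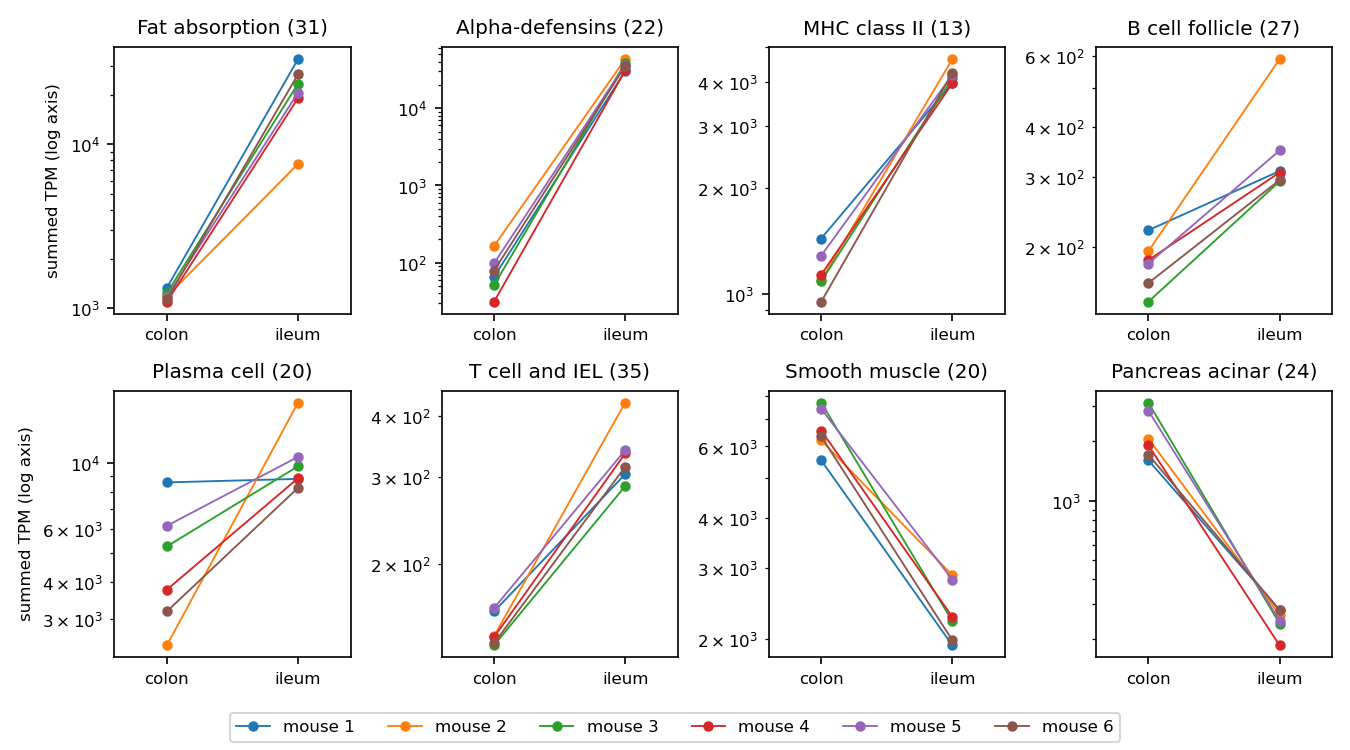
Summed TPM of 8 gene lists in the colon and the ileum of each of 6 mice on log axes, with the number of genes in brackets and a line joining the libraries of a mouse. Lines rise to the ileum in 6 panels and fall to it for smooth muscle and pancreas acinar genes. Much of the pancreas acinar sum in the colon is Sycn. The ileum of mouse 2 is the lowest for fat absorption and the highest for B cell, plasma cell and T cell genes.

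Among sensors of bacteria 12 of 32 were called higher, near the 35.0% of all genes, and 10 lower. Tlr2 was 4.93-fold higher in the colon, Tlr4 3.08-fold higher and Tlr5, the flagellin receptor, 3.0-fold higher. The Naip sensors of the inflammasome were split: Naip1 was 1.71-fold higher, Naip5 3.35-fold lower and Naip6 2.26-fold lower. Their partner Nlrc4 was 2.0-fold lower. These Naip genes are close relatives and can share reads. Gasdermins, pore-forming proteins, also split: Gsdmc2 and Gsdmc4 were 22-fold and 38.9-fold higher, and Gsdmd was 2.15-fold lower.

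Interferon-stimulated genes were called higher in 21 of 42 and lower in 7. Without mice 3 and 5 the counts were 13 and 5, in a fit that called fewer of all 15742 genes. That fit called 3519 higher and 2183 lower, in place of 5506 and 2840. The oligoadenylate synthetase genes, sensors of viral RNA, led: Oas2 ranged from 8.25 to 18.5 TPM (median 9.998) in the colon and 1.06 to 2.94 TPM (median 1.82) in the ileum (6.62-fold, log2 difference 2.17 ± 0.17 SE, adjusted p 1.9e-05), and Oas1a was 3.15-fold higher. Irf7 was 1.96-fold higher. The members called lower included the GTPase genes Iigp1 (3.39-fold) and Gbp8 (2.94-fold). The ileum of mouse 1 was the highest ileum, with a list sum of 1594 TPM against 927 to 1106 in the other 5, and mouse 1 was the only mouse with the lower sum in the colon. The sums were 1479.8 ± 293 against 1112 ± 246 TPM (adjusted p 0.074, exact sign-change test).

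The colon samples held more muscle RNA. Of 20 smooth muscle genes 19 were called higher and none lower, with sums of 5544 to 7705 TPM in the colon and 1930.0 to 2879 in the ileum (2.83-fold, exact p 0.031, adjusted p 0.042). Cnn1, calponin, was 5.38-fold higher (679 ± 105 against 126 ± 25.7 TPM), Des 3.53-fold higher and Myh11 2.38-fold higher. Genes of enteric neurons and glia were higher in 12 of 20 and lower in 1 (15 and 2 without mouse 2): Nos1, the marker of inhibitory motor neurons, was at 4.27 ± 1.16 against 0.979 ± 0.381 TPM and Penk 4.35-fold higher, while Vip was not called (30.6 against 28.5 TPM). Of the list of stroma and endothelium, genes called higher numbered 13 of 29, 20 without mouse 2 and 5 without mice 3 and 5, with none lower in any of these fits and 2 lower after RLE rescaling. Fn1 was 2.57-fold higher and Col3a1 2.14-fold higher, and the endothelial genes Pecam1 (30.7 against 31 TPM) and Cdh5 (15.6 against 16.4 TPM) were not called. The part of this muscle and stroma in the differences of other lists was not tested. None of the 5 tested haemoglobin and erythroid genes was called in limma.

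Of the 24 pancreatic acinar genes only 9 passed the filter, 3 of them higher and 2 lower in the colon, shares near those of all genes (35.0% and 18.0%). Without mice 3 and 5 the counts were 3 and 4. Besides Sycn, Cela1, an elastase, was high in all 6 colons (149 ± 36.8 against 3.28 ± 0.525 TPM, 45.4-fold). The classical digestive enzymes behaved otherwise: Ctrb1, chymotrypsinogen, was at 257 and 59.9 TPM in the colons of mice 3 and 5, 2.91 TPM in that of mouse 2 and under 1 TPM in the other 9 libraries.

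Enzymes of foreign compound metabolism included genes high in either region. Of 33 cytochrome P450 genes 14 were higher and 15 lower in the colon. Cyp2c55 ranged from 443 to 893 TPM (median 669) in the colon and 1.72 to 15.7 TPM (median 3.8) in the ileum (122-fold), and Cyp2d34, Cyp2d9, Cyp2d10 and Cyp2d12, neighbours that can share reads, averaged 166, 21, 22.7 and 21.4 TPM in the colon and under 0.2 TPM in the ileum. The Cyp3a genes, of a family that metabolises many drugs, were ileal: Cyp3a11 was at 0.818 ± 0.732 against 80.1 ± 78 TPM and Cyp3a25 at 0.632 ± 0.297 against 106 ± 71.5 TPM. Cyp2b10 was at 0.329 ± 0.303 against 24.1 ± 23.2 TPM. In the ileum Cyp3a11 and Cyp2b10 had an SD near their mean. Mouse 1 had the highest ileum value of all 3 genes (223 TPM of Cyp3a11, 234 of Cyp3a25 and 64.2 of Cyp2b10), as it had of Cyp2c55, and mouse 2 the lowest (15.1, 33.6 and 5.78 TPM). Among 56 conjugating enzymes, esterases and exporters 26 were higher and 13 lower (all genes 35.0% and 18.0%). The sulfotransferase Sult1a1 was 28.5-fold higher, and the glucuronosyltransferase Ugt2a3 was at 0.106 ± 0.0602 against 36.9 ± 16.8 TPM. Abcc2, an apical exporter of conjugates, was at 0.819 ± 0.289 against 54.5 ± 18.8 TPM, the opposite of Abcc3. Of 19 circadian clock genes 11 were higher, led by Ciart (2.91-fold) and Dbp (2.14-fold), and 2 lower, Nfil3 (2.17-fold) and Npas2 (1.3-fold). The call of Npas2 was lost when mouse 1, 3, 4 or 6 was left out (adjusted p 0.069 to 0.084) and without the mouse term (adjusted p 0.13).

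Of 17 genes often used as references 6 were called higher and 2 lower, shares near or below those of all genes (35.0% and 18.0%). The counts were 9 and 3 without mouse 2, 1 and 5 after RLE rescaling, and 1 and 2 without mice 3 and 5. Beta-actin, Actb, was 1.73-fold lower in the colon (4172 ± 306 against 7203 ± 1049 TPM, adjusted p 9.0e-05) and B2m 2.08-fold lower, while Gapdh (1682 against 1513 TPM, adjusted p 0.088) and Tbp (19.2 against 18.5 TPM, adjusted p 0.68) were not called.

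Whether these regional differences differ between strains was tested against C57BL/6J on the colon minus ileum difference of each of 13 mice. Of 15742 genes 653 were called (4.15%), 214 with a more positive and 439 with a more negative difference in BALB/cJ. After RLE rescaling there were 282 and 151, and the median strain difference of all genes moved from -0.15 to -0.01. The library labelled ileum of C57BL/6J mouse 2 held 22.1 TPM of Fabp6, against its label. It held 6947 TPM of Fabp1 against 66 to 515 in the other C57BL/6J ileum libraries, and 771 TPM of Cyp3a11 against 8.1 to 82. Defa5, at 571 to 2282 TPM in those others, was at 3.4e-06 TPM. Whether samples of this mouse were exchanged was not tested. Without that mouse 1027 genes were called, 317 and 710, of which 637 were among the 653. With all 13 mice, members called for strain were 1 of 31 in the fat absorption, 1 of 26 in the goblet cell and 1 of 28 in the Hox list. These were near the share of all genes (4.15%). Without C57BL/6J mouse 2 the counts were 2, 4 and 1, and the goblet cell count lay above the share of all genes (1027 of 15742). With all 13 mice, lists with a larger share included the alpha-defensins (6 of 16) and non-defensin Paneth products (5 of 14). Others were short-chain fatty acid and ketone genes (6 of 17), mucin glycosylation (7 of 35) and conjugating enzymes (9 of 56). Without C57BL/6J mouse 2 these counts were 9, 8, 8, 13 and 24, and after RLE rescaling 6, 3, 1, 6 and 3. For Car1, BALB/cJ minus C57BL/6J without mouse 2 was -0.96 ± 0.66 SE (adjusted p 0.4), and for Muc2 -0.56 ± 0.19 SE (adjusted p 0.099). Of 42 interferon-stimulated genes tested, 31 were called for strain, each with the more positive difference in BALB/cJ, and 0 the other way (35 and 0 without C57BL/6J mouse 2, 32 and 0 after RLE rescaling). For Oasl2 the difference was 1.20 in BALB/cJ and -1.22 in C57BL/6J without mouse 2 (adjusted p 3.1e-04). It was 1.60 and -0.85 for Ifi44, and 1.36 and -0.57 for Rtp4. The list sums lay at 1191 to 1849 TPM in the colon and 927 to 1594 in the ileum of BALB/cJ, and at 477 to 660 in the colon and 868 to 1385 in the ileum of C57BL/6J without mouse 2, where colon and ileum did not overlap. Of all genes called for strain, 60 were called within both strains with opposite signs (65 without C57BL/6J mouse 2). Without that mouse they included St3gal4, a sialyltransferase gene, at 1.34 in BALB/cJ and -2.38 in C57BL/6J, Fmo2 at -0.71 and 1.11, and Acpp at -1.09 and 0.33.

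**Figure D5:**
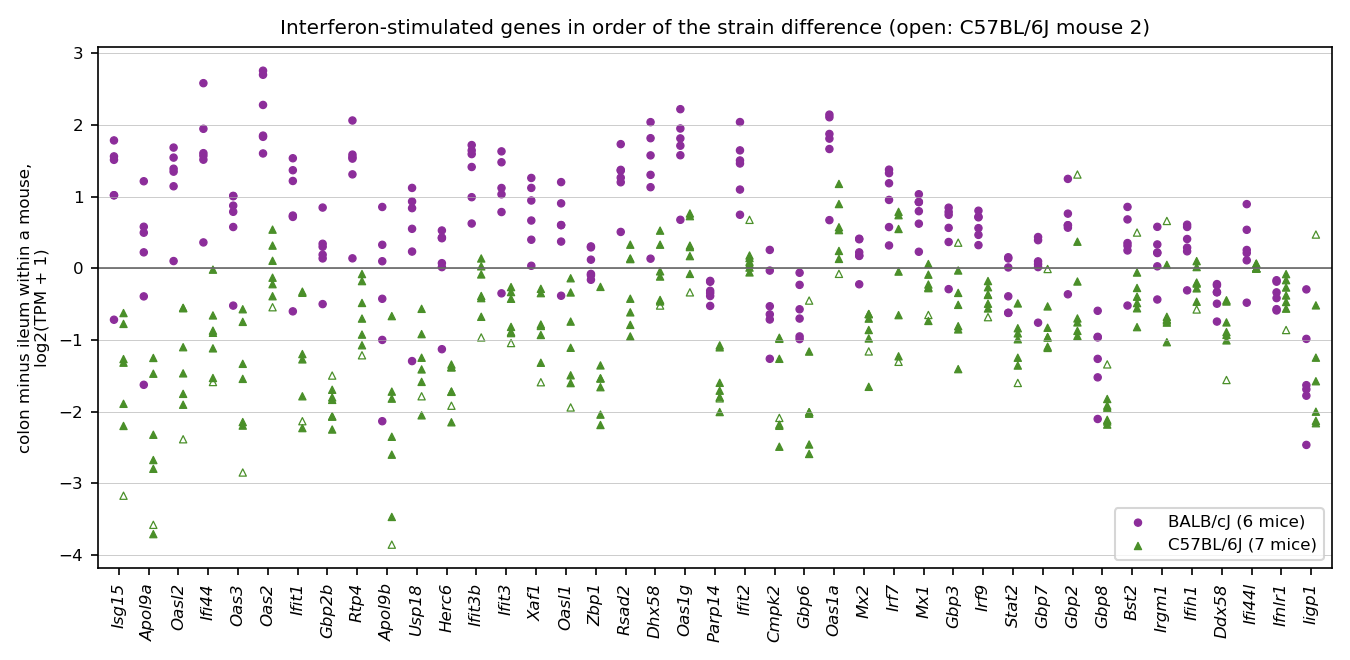
Difference between colon and ileum within each mouse, on the log2(TPM + 1) scale, for 41 of the 42 interferon-stimulated genes in 6 BALB/cJ mice (circles) and 7 C57BL/6J mice (triangles, mouse 2 open), ordered by the strain difference. For most genes to the left of the plot the BALB/cJ points lie mainly above 0 and the C57BL/6J points below it.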

How the data were processed

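Colon, ileum and upper small intestine of 13 mice had been sequenced as total RNA after ribosomal RNA depletion (TruSeq with Ribo-Zero, per the labels' protocols). The authors deposited 1 table per tissue of log2(TPM + 1) per gene, the unit read from the values, and the submitters' processing notes name kallisto 0.44.0 and GRCm38. Which annotation was used, the sources used here do not give. TPM is scaled within each library, so read depth is unknown and no counting interval was computed. All columns belong to samples (0 left out), and 26 entries whose names had turned into dates were dropped.

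Deposited log2 values were tested with limma 3.58.1 in R 4.3.3 (variance trend, tissue and mouse as terms, 2-sided, Benjamini-Hochberg adjustment over 15742 genes). Strains were compared with limma on 13 differences within a mouse. Sums of TPM over gene lists were tested with the exact sign-change test over 6 pairs, adjusted over 50 lists. Every sum at the smallest possible p, 0.031, had the same adjusted p, 0.042. That value depends on how many of the lists reached the smallest p and does not rank them. The 50 include the marker lists used to check the tissue labels. A fold is a ratio of mean TPM and was given where the lower mean was at least 1 TPM. The colon and ileum libraries of a mouse share an animal, per the labels. Their deviations from the tissue means correlated at r 0.0429 to 0.362 across genes, and 5 of 6 colons correlated best with their own ileum. P-values of the main comparison rest on how the difference between colon and ileum varies between mice of 1 strain. Those for strain rest on how it varies between mice within each of the 2 strains.

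Genes named were the 15 in each direction with the largest difference among those called at 2-fold, with a mean of at least 10 TPM in the higher tissue and 1 sign in all 6 mice (predicted genes, pseudogenes and receptor segments left out), members of the 50 lists, called members with the largest differences first, and for strain the 10 in each direction with the smallest adjusted p. Some uncalled list members were added after their values were seen. A few list members are counted in their lists but not reported singly here. Members and lists were chosen with earlier results of these data known. Alternatives were another pseudocount, other filters, RLE rescaling, no variance trend, no mouse term and leaving mice out. Gene coordinates are from GENCODE M21.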

Additional observations from a re-analysis of the deposited data

Results flagged for a closer look

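A library was set apart where its gap to the nearest of the other 5 exceeded Dixon's critical share of the range, a rule that chance meets in about 1 of 20 groups, and it was met in 9 of 71 groups looked at. Of these 9, 5 were the ileum of mouse 2. It was the highest ileum for Lyz1 (5005 TPM against 3722 to 3913 in the others) and Olfm4 (399.9 against 318 to 342), and for the sums of B cell (590.0 against 292 to 349), plasma cell (15879 against 8245 to 10462) and stromal genes (3185 against 1866 to 2078). The colon of mouse 2 was the highest colon for Defa17 (25.1 TPM against 4.34 to 11.6). The ileum of mouse 1 was the highest for Cyp2c55 (15.7 TPM against 1.72 to 6.20) and for the interferon-stimulated sum (1594 against 927 to 1106), and the ileum of mouse 5 for Fabp6 (11144 TPM against 4884 to 6187).

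The regional difference was tested for a difference between strains, and 20 genes stand out by their adjusted p in limma, all of them called also without C57BL/6J mouse 2, after RLE rescaling, with a pseudocount of 0.1 TPM and without the mouse term. The difference in BALB/cJ minus that in C57BL/6J, on the log2(TPM + 1) scale, was 4.49 for Lpo, 5.45 for Nxpe5, 2.78 for Afm, 3.81 for St3gal4, 3.55 for Klk15, 10.91 for Defa21, 2.08 for Slfn4, 1.92 for Ly6g6c, 2.58 for Plscr2 and 2.11 for Gbp2b. It was -8.17 for Mptx1, -3.36 for Nxpe4, -3.09 for Cbr3, -8.70 for Defa27, -0.98 for Pon3, -1.41 for Acpp, -1.97 for Fmo2, -1.90 for Fxyd4, -1.05 for Mgst1 and -0.89 for Hpcal1. For Mptx1 the means in colon and ileum were 548 and 207 TPM in BALB/cJ and 2832 and 2.66 TPM in C57BL/6J without ileum 2. Defa21 and Defa27 are close copies of other alpha-defensin genes, and reads of one strain can be assigned to another copy.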

How the results depend on the processing

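The pairing by mouse changed little: without the replicate block 8071 genes were called in place of 8346, of which 7796 were shared. Of the 8071, 5342 were higher and 2729 lower in the colon. For strain 829 were called in place of 653. Leaving out 1 mouse gave 7181 to 9445 calls (4662 to 6600 higher, 2487 to 2845 lower), and 1078 to 1217 higher and 913 to 966 lower at 2-fold, the 9445 being without mouse 2. Without mice 3 and 5 the count higher in the colon was 3519, from 4 mice in place of 6. RLE rescaling changed the split to 4005 higher and 4119 lower, and the strain calls to 433, of which 151 were more negative in BALB/cJ. Without C57BL/6J mouse 2 the strain calls were 1027, of which 710 were more negative. With no filter 8685 of 26312 genes were called and with 5 TPM in 6 libraries 6930 of 11962. Of 50 sums 37 passed the threshold, 40 without the block and 37 after RLE rescaling, which gained 5 and lost 5. Gained, each at an adjusted p of 0.0422, were the proliferation (-0.53), stromal (0.55), tuft cell, stem cell and antimicrobial sums. Lost were the sums of ion transport (adjusted p 0.114), pattern receptors (0.145), epithelial transcription factors (0.875, where the difference went from 0.12 to -0.03), reference genes and vitamin uptake (both 0.078). With 5 pairs the exact test cannot go below p 0.0625, and the 12 sums named kept their directions. The 30 genes with the largest differences kept their calls under all alternatives run. Over all named genes and alternatives 12 values passed the threshold only in the alternative and 19 only in the fit reported, 9 of these for Alpl and 6 for Npas2, and none reversed. Depth is unknown in TPM, so low genes cannot be judged by counts.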
